A study of Homo sapiens with 6 samples.

Results

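The proteasome is the large barrel-shaped protease that degrades ubiquitin-tagged proteins. Its core particle is built of outer rings of alpha subunits and inner rings of beta subunits, which hold the proteolytic sites, and the 19S cap binds, unfolds and feeds in the substrate. Other activators can dock in place of the cap, dedicated chaperones assemble the particle, and in immune and interferon-treated cells inducible beta subunits replace the constitutive catalytic ones. The transcription factor NFE2L1 is known for raising proteasome genes together when proteasome activity falls.

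The genes described here were the protein-coding genes whose symbol is PSMA, PSMB, PSMC, PSMD, PSME, PSMF or PSMG followed by digits only. There were 48 such genes of 63190 in the deposited table, with 439 of its 207167 transcripts. The study compared RNA of HEK293T-Rex cells that overexpress the DIS3L2 D391N mutant with RNA of control HEK293T-Rex FlipIn cells, with 3 libraries in each condition. The labels name the cells HEK293, an embryonic kidney line of human origin, and the T-Rex derivative carries the tetracycline repressor. DIS3L2 is a cytoplasmic exoribonuclease that degrades RNAs with oligo(U) tails, and D391N is a catalytic-site mutant with a C-terminal Flag tag. The construct was stably integrated in a single line and doxycycline-inducible, and whether the control cells received doxycycline is not stated, so construct, inducer and cell line cannot be told apart. Total RNA was depleted of ribosomal RNA and sequenced as single-end reads with 3 libraries in a lane, so a lane may coincide with a condition. The labels do not say that replicates came from separate cultures, so the p-values measure only the spread between these libraries. In bulk RNA, fewer cells expressing a gene and less RNA per cell cannot be told apart.

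Levels are given as RPKM (reads normalised to transcript length and library size), summed over the transcripts of a gene, with the libraries in the order replicate 1, 2 and 3. DIS3L2 itself stood at 369, 467 and 512 RPKM in the D391N libraries and at 11.8, 12.9 and 14.6 RPKM in the control libraries (exact permutation test, two-sided, p = 0.10, below which 3 against 3 libraries cannot go). The log2 fold change of DIS3L2 was 5.08 by these sums, 3.19 over protein-coding transcripts and 2.92 by sums weighted for transcript length. Estimated depth ran from about 17000000 to 26100000 reads, and control replicate 3 and D391N replicate 2 were the shallowest libraries. Of the markers of the line, VIM, KRT8, KRT18 and NEFL ranged from 26.5 to 180.2 RPKM, PAX2 from 1.31 to 1.93 RPKM, and NEFM was below 1 RPKM in every library. The leukocyte marker CD3E and the hepatocyte marker APOA1 were below 0.2 RPKM throughout, and no transcript of PTPRC, listed at 1.34 to 1.77 RPKM, had as much as 1 read behind it. ALB was listed at 0.596 to 1.13 RPKM, with an estimated 0.416 to 3.52 reads per library summed over its 20 transcripts. The fibroblast markers COL1A1 and COL1A2 ranged from 2.03 to 4.05 and from 0.383 to 0.676 RPKM.

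In how genes, the proteasome genes among them, were divided among their transcripts, the D391N libraries differed more from each other than the controls did. D391N replicate 1 lay closest to the controls. The isoform distance is the percentage of a gene's RPKM that would have to move between transcripts to turn the division in 1 library into that of another. Over the 43 proteasome genes with a mean of at least 1 RPKM, its median was 8.68%, 9.69% and 9.79% for the pairs of control libraries. The median distance of D391N replicate 1 from the controls was 13.3%, 16.7% and 16.4%, whereas its distance from D391N replicates 2 and 3 was 33.6% and 26.8%. D391N replicate 1 was thus closer to every control library than to either other D391N library, although its DIS3L2 level was that of the D391N condition. D391N replicates 2 and 3 differed from each other by 20.1%. In 6993 other protein-coding genes of at least 10 RPKM, the D391N pairs differed by 24.2%, 20.0% and 18.9% and the control pairs by 10.3%, 12.1% and 11.1%. D391N replicate 1 lay 14.7%, 15.7% and 15.6% from the controls in those genes, so it stood closer to the controls there too. There D391N replicate 2 lay 26.8%, 26.1% and 25.7% from the controls. D391N replicate 3 lay 18.7%, 18.6% and 19.8% from them, about as far as from the other D391N libraries. Some results on isoforms and on gene sums are also given without D391N replicate 1, where stated. That library is singled out for its closeness to the controls in these same data, so leaving it out favours more calls. Over all genes tested it raised the calls from 29 to 2261. The p-values without it are therefore no separate support.

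**Figure D1:**
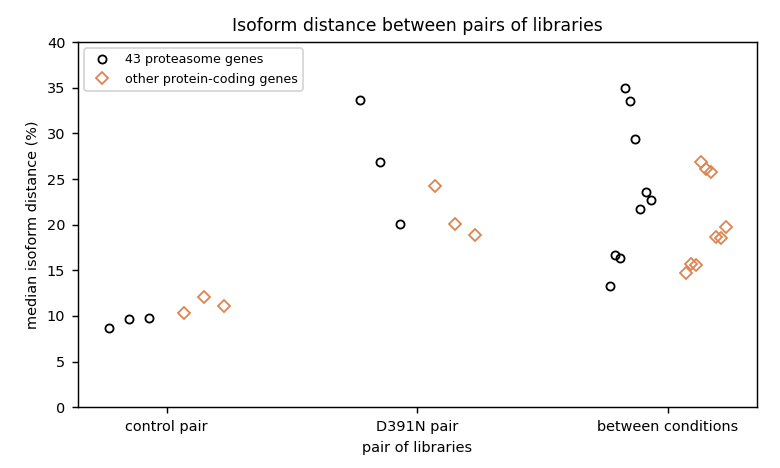
Median isoform distance (%, vertical axis) for each pair of libraries, by kind of pair, over the 43 proteasome genes (circles) and over other protein-coding genes (diamonds). The 3 control pairs lie between 8.68% and 9.79% for the proteasome genes, below the 3 D391N pairs at 20.1% to 33.6%.

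The summed level of the proteasome genes overlapped between the conditions, and no single gene passed the test. Over all 48 genes, the libraries held 3805, 4487 and 4266 RPKM in D391N cells and 4184, 4052 and 3072 RPKM in control cells. The means were 4186 ± 348 and 3769 ± 608 RPKM (SD, n = 3), a log2 ratio of 0.15. Of the 43 genes with a mean of at least 1 RPKM, 0 were called by limma on log2(RPKM + 0.1) at a Benjamini-Hochberg adjusted p under 0.05, where the background was 0.14% of 20714 genes. At an unadjusted p under 0.05, 5 were higher and 5 lower, beside a background of 22.7% in both directions. The libraries of the conditions did not overlap for 7 genes that were higher and 5 that were lower in D391N cells, and the background was 10.5% and 20.7%. Over protein-coding genes alone these backgrounds were 24.1% for the unadjusted p, and 13.4% higher and 22.1% lower without overlap. The median log2 fold change was -0.038 over the 43 genes, -0.090 over all genes tested and -0.053 over the 12709 protein-coding genes tested. Centring each library on its median shifted the median of all genes by 0.22, and 11 proteasome genes were then higher and 2 lower without overlap, beside a background of 21.2% and 11.5%. PSME1 was the only tested proteasome gene with a fitted change above 2-fold.

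RPKM sums give much weight to short transcripts. Length-weighted sums, the RPKM times the transcript length in kilobases added up over a gene, count the reads of a gene relative to library size (RPM) whichever isoform they were assigned to, and were computed after seeing the data. By these sums 1 proteasome gene was called, PSME1, beside 2.84% of 19386 genes. The libraries then did not overlap for 6 genes higher and 6 lower, with a background of 9.75% and 23.6%. Without D391N replicate 1, the RPKM sums gave 5 calls among the 43 genes, PSMA4, PSMA5 and PSMD12 higher and PSME1 and PSMG3 lower, beside a background of 10.9%. Sums over protein-coding transcripts gave 1 call, PSME2, beside 5.22%.

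**Figure D2:**
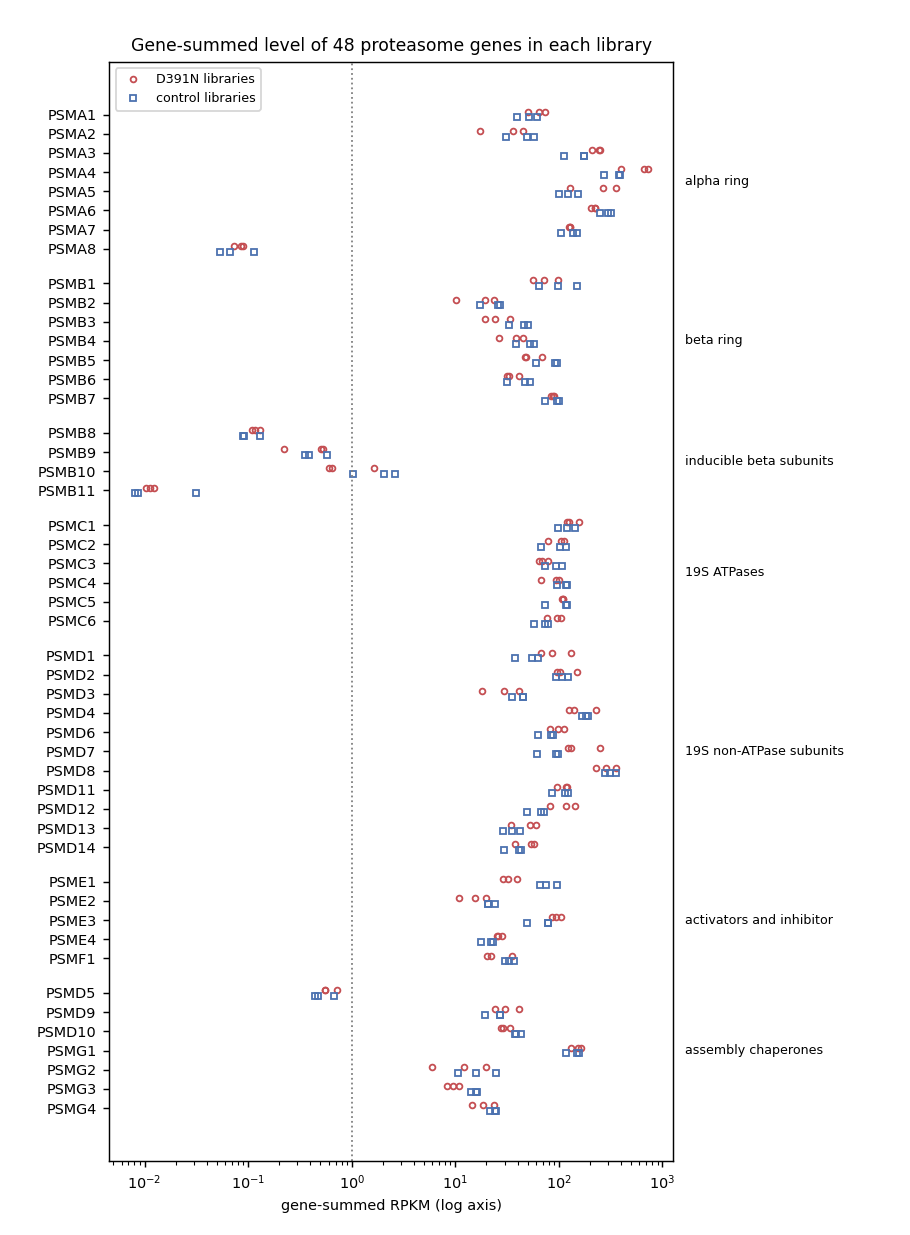
Gene-summed RPKM (log axis) of the 48 proteasome genes in each D391N library (circles) and control library (squares), grouped by role. The dotted line marks 1 RPKM, and the 5 genes whose mean lies left of it are PSMA8, PSMB8, PSMB9, PSMB11 and PSMD5.

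The alpha ring gates the channel into the core. Its 7 tested genes had fold changes in both directions, 4 above and 3 below 0, with a median log2 fold change of 0.30 by RPKM sums, 0.19 by length-weighted sums and -0.16 by protein-coding transcripts. The summed level of the ring was 1522 ± 294 RPKM in D391N and 1144 ± 202 RPKM in control cells (SD, n = 3). PSMA4 (ENSG00000041357; chromosome 15, 78540405 to 78552417 on GRCh38) was the most abundant of all 48 genes, with 396, 724 and 661 RPKM in D391N and 388, 381 and 272 RPKM in control cells. All D391N values lay above the controls, D391N replicate 1 only just, and the log2 fold change was 0.75 ± 0.30 (SE; limma, adjusted p = 0.204, and 0.043 without D391N replicate 1). PSMA3 was at 210.3, 252 and 245 RPKM in D391N and 176, 175 and 113 RPKM in control cells, also without overlap, and its log2 fold change was 0.63 by RPKM sums but -1.20 by protein-coding transcripts. PSMA5 had the highest fold change of the ring by RPKM sums, 0.90 ± 0.39 on the log2 scale (SE; limma, adjusted p = 0.230), from 128, 354 and 269.8 RPKM against 124, 154 and 99.5 RPKM. D391N replicate 1 lay among the controls for PSMA5, and the log2 fold change was 0.46 by length-weighted sums and 0.064 by protein-coding transcripts. By these other measures PSMA4 was the highest of the ring, at 0.67 and 0.75.

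PSMA6 had 226, 225 and 203 RPKM in D391N and 318, 297 and 253 RPKM in control cells. Its groups did not overlap, and the log2 fold change was -0.40 ± 0.17 (SE; limma, adjusted p = 0.222). Over protein-coding transcripts the direction turned, with a log2 fold change of 0.068 and groups that overlapped. PSMA2 had the lowest fold change of the ring, -0.56 ± 0.40 (SE), from 36.3, 17.3 and 44.7 RPKM against 58.3, 49.6 and 30.9 RPKM, which overlapped. PSMA7 differed least, with means of 128 ± 1.95 and 130.04 ± 23.1 RPKM (SD, n = 3). PSMA8, the testis-specific alpha subunit, was listed at no more than 0.114 RPKM in any library.

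The beta ring contains the proteolytic sites. All 7 of its genes had fold changes below 0 by RPKM sums, length-weighted sums, protein-coding transcripts and quantile normalization, with a median log2 fold change of -0.45 by RPKM sums, but median centring put PSMB7 at 0.18 and left 6 below 0. Of all genes tested, 57.3% had a fold change below 0. None of the 7 passed the test, and for none were the libraries of the conditions separate. Summed over the ring, the libraries held 387, 289 and 323 RPKM in D391N and 527, 469 and 319 RPKM in control cells. Control replicate 3, the shallowest library, lay within the D391N range, and the other control libraries lay above it.

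PSMB3, a structural beta subunit, had the lowest fold change of the ring, -0.75 ± 0.26 on the log2 scale (SE; limma, adjusted p = 0.167), from 33.7, 19.4 and 24.5 RPKM against 50.9, 46.2 and 32.8 RPKM. PSMB5, the chymotrypsin-like subunit, was at 69.0, 48.3 and 46.8 RPKM in D391N and 91.5, 96.99 and 60.4 RPKM in control cells. For both genes D391N replicates 2 and 3 lay below all controls, and D391N replicate 1 lay above control replicate 3. PSMB6, the caspase-like subunit, had 35.5 ± 5.25 RPKM in D391N and 44.2 ± 11.02 RPKM in control cells (SD, n = 3). PSMB7, the trypsin-like subunit, had 87.3 ± 2.20 and 90.5 ± 15.2 RPKM (SD, n = 3). PSMB1 had the highest mean of the ring, with 97.9, 56.1 and 72.5 RPKM in D391N and 149.6, 98.1 and 65.0 RPKM in control cells, and D391N replicate 2 was the lowest library of all.

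The inducible counterparts of the catalytic subunits were at or near the limit of detection, and PSMB10, the highest of them, was also low. PSMB8, which replaces PSMB5 in the immunoproteasome, was listed at 0.090 to 0.131 RPKM, and by the posterior variance no transcript of it had as much as 1 read in any library. PSMB9, the counterpart of PSMB6, was listed at 0.224 to 0.581 RPKM, again with less than 1 read in each transcript and library. PSMB10, the counterpart of PSMB7, was the only inducible subunit that passed the filter, with 0.607, 0.650 and 1.65 RPKM in D391N and 2.06, 2.64 and 1.03 RPKM in control cells. These values rest on few reads, an estimated 1.85 to 20.9 per library summed over its 5 transcripts. D391N replicate 3 lay above control replicate 3, so the groups overlapped, and the log2 fold change was -0.95 ± 0.50 (SE; limma, adjusted p = 0.298). PSMB11, the thymus-specific subunit, was at no more than 0.031 RPKM. Among the interferon-responsive genes, IRF1 stood at 4.35 to 5.88 RPKM, and TAP1, which sits beside PSMB8 and PSMB9 on chromosome 6, and GBP1 stayed below 0.5 RPKM in every library.

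**Figure D3:**
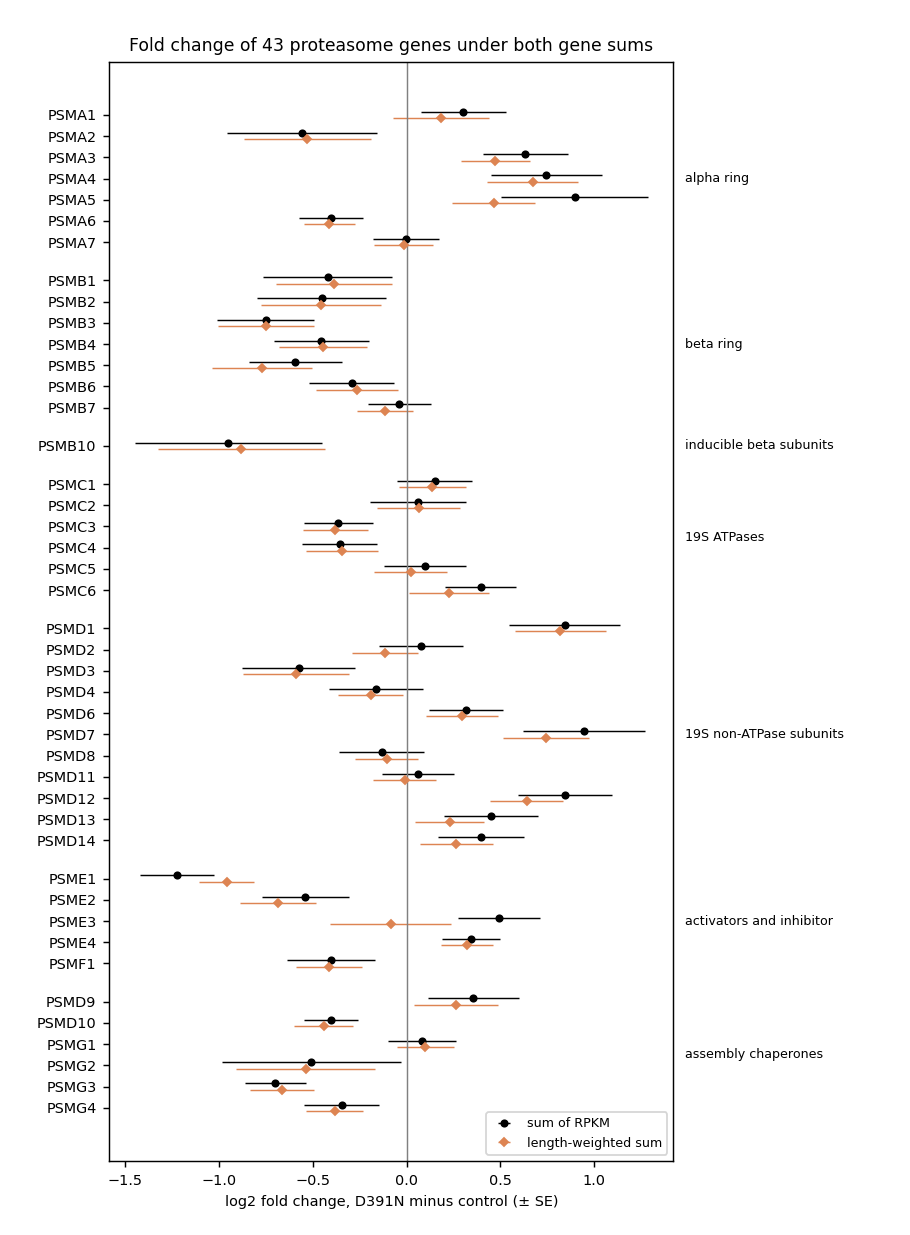
Log2 fold change, D391N minus control, of the 43 tested proteasome genes with its standard error, by role, from RPKM sums (circles) and from length-weighted sums (diamonds). The 7 beta ring genes lie left of 0 under both sums, and PSME1 lies farthest left at -1.22 and -0.96.

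The 6 ATPases of the cap base, which unfold the substrate, differed little in sum. Their summed level was 591 ± 19.7 RPKM in D391N and 593 ± 110.3 RPKM in control cells (SD, n = 3), and single genes ranged from -0.36 (PSMC3) to 0.40 (PSMC6) in log2 fold change. PSMC3 had 64.4, 68.4 and 78.4 RPKM in D391N and 94.3, 106.6 and 73.2 RPKM in control cells. PSMC6 had 77.1, 104.0 and 95.3 RPKM against 79.2, 73.2 and 58.0 RPKM, and its log2 fold change was -0.54 by protein-coding transcripts. Both genes overlapped between the conditions. PSMC1 had the highest mean of the class, 133 ± 19.4 and 121 ± 22.6 RPKM (SD, n = 3), but 13 PSMC1 pseudogenes together held 98.4 RPKM, or 77.6% of the level of the parent gene. Reads shared between PSMC1 and these copies could be assigned to either, so its value is uncertain. Every other parent gene exceeded the summed level of its pseudogenes by far, the largest share being 6.15% for PSME2.

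The non-ATPase subunits of the cap form its lid and receptors. Of the 11 genes, 8 had a fold change above 0 by RPKM sums and 6 by length-weighted sums, and 3 were higher in each D391N library without overlap, PSMD1, PSMD7 and PSMD12. Of all genes tested, 42.7% had a fold change above 0 by RPKM sums and 10.5% were higher without overlap (13.4% of protein-coding genes). PSMD7, a partner of the deubiquitinase PSMD14 in the lid, was at 123, 248 and 132 RPKM in D391N and 93.2, 97.8 and 61.7 RPKM in control cells. D391N replicate 2 stood far above the rest, and the log2 fold change was 0.95 ± 0.32 (SE; limma, adjusted p = 0.165). PSMD12, a lid subunit, was at 82.8, 118 and 142 RPKM against 66.8, 72.8 and 49.3 RPKM, with a log2 fold change of 0.84 ± 0.25 (SE; limma, adjusted p = 0.139, and 0.037 without D391N replicate 1). PSMD1, the scaffold of the base, was at 68.1, 130.01 and 86.0 RPKM against 54.6, 63.4 and 38.0 RPKM, and its log2 fold change was 0.84 ± 0.30 (SE; limma, adjusted p = 0.171). For all 3 genes D391N replicate 1 was the lowest of its condition.

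PSMD3, another lid subunit, had the lowest fold change of the class, -0.58 ± 0.30 on the log2 scale (SE; limma, adjusted p = 0.299). Its libraries were at 41.0, 18.0 and 29.5 RPKM in D391N and 45.3, 45.1 and 35.6 RPKM in control cells, and D391N replicate 1 lay within the control range. PSMD8 had the highest level of the cap, 292 ± 65.9 RPKM in D391N and 316 ± 38.0 RPKM in control cells (SD, n = 3).

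Among the activators, the genes of the PA28 alpha and beta subunits lay lower in D391N cells. PSME1 (ENSG00000092010; chromosome 14, 24136194 to 24138962 on GRCh38), which encodes PA28 alpha, was at 39.9, 29.2 and 32.2 RPKM in D391N and 75.3, 66.6 and 95.5 RPKM in control cells. No D391N library came near the controls, and the log2 fold change was -1.22 ± 0.20 (SE; limma, adjusted p = 0.066). By length-weighted sums PSME1 had 23.2, 24.9 and 24.9 RPM in D391N and 45.5, 41.9 and 55.8 RPM in control cells, and it fell by 0.96 ± 0.15 on the log2 scale (SE; limma, adjusted p = 0.031). By protein-coding transcripts the log2 fold change of PSME1 was -0.38 (limma, adjusted p = 0.577), from 5.71, 20.3 and 18.4 RPKM in D391N and 17.04, 16.7 and 16.7 RPKM in control cells. There only D391N replicate 1 lay below the controls, and the other D391N libraries lay above all of them. The main PSME1 entry in control cells was PSME1-203, which has no defined coding sequence and held 72.8%, 67.6% and 76.9% of the gene there and 77.4%, 21.3% and 38.9% in D391N cells.

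PSME2 (chromosome 14, 24143365 to 24146610), its neighbour, encodes PA28 beta and was at 10.96, 15.6 and 20.0 RPKM in D391N and 20.9, 24.1 and 20.9 RPKM in control cells. The groups did not overlap, D391N replicate 3 lying just under the controls, and the log2 fold change was -0.54 ± 0.23 (SE; limma, adjusted p = 0.229). Over protein-coding transcripts alone PSME2 fell by 1.25 on the log2 scale (limma, adjusted p = 0.044). PSME3, the nuclear PA28 gamma, was at 86.0, 94.2 and 105 RPKM in D391N and 78.3, 78.8 and 49.7 RPKM in control cells, without overlap. The log2 fold change of PSME3 was 0.49 ± 0.22 (SE; limma, adjusted p = 0.238) by RPKM sums and -0.084 by length-weighted sums. PSME4, the PA200 activator, had 26.7 ± 1.52 and 21.1 ± 2.80 RPKM (SD, n = 3), also without overlap, with a log2 fold change of 0.34 by RPKM sums and 0.042 by protein-coding transcripts, which overlapped. PSMF1, an inhibitor of the core, had 26.0 ± 8.28 and 33.5 ± 3.40 RPKM (SD, n = 3).

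Of the assembly chaperones, PSMG3, which helps to build the alpha ring, was lower in every D391N library, at 10.8, 8.26 and 9.51 RPKM against 16.3, 16.0 and 14.1 RPKM. Its log2 fold change was -0.70 ± 0.16 (SE; limma, adjusted p = 0.102, and 0.038 without D391N replicate 1). All of the RPKM of PSMG3 lay in protein-coding transcripts, so the sum over these is the same number and no separate check. PSMG1, another chaperone of the alpha ring, had the highest level of the class and differed little, with 149 ± 16.8 and 141 ± 19.9 RPKM (SD, n = 3). PSMD10, the chaperone gankyrin, was at 27.8, 28.6 and 33.7 RPKM in D391N and 38.4, 43.1 and 37.6 RPKM in control cells, without overlap. PSMD9 had the highest fold change of the class, 0.36 ± 0.24 (SE), from 30.0, 41.7 and 24.1 RPKM against 27.3, 26.8 and 19.6 RPKM, which overlapped. PSMD5, which binds the cap base during assembly, was below every tested member in mean level, at 0.447 to 0.722 RPKM, with 19.04 to 27.1 reads behind its main transcript PSMD5-201.

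Other genes of the pathway were the ubiquitin genes, ubiquitin receptors, assembly factors, and NFE2L1 with its processing enzymes. Of these 27 genes, 0 were called by limma over all genes and 12 had an unadjusted p under 0.05 (background 22.7%), with 6 higher and 6 lower without overlap (background 10.5% and 20.7%) and a median log2 fold change of 0.03. Over protein-coding genes alone these backgrounds were 24.1%, 13.4% and 22.1%. NFE2L1 was at 67.1, 53.1 and 51.1 RPKM in D391N and 81.9, 86.5 and 77.2 RPKM in control cells, without overlap, with a log2 fold change of -0.53 (limma, adjusted p = 0.140). POMP, which matures the core, had a log2 fold change of 0.40 (limma, adjusted p = 0.307), from 53.7, 40.2 and 55.8 RPKM against 42.7, 41.9 and 29.4 RPKM. ADRM1, a ubiquitin receptor of the cap, had a log2 fold change of -0.60 (limma, adjusted p = 0.186), from 14.5, 11.5 and 17.3 RPKM against 25.6, 23.3 and 16.9 RPKM. SEM1, a small lid subunit, had -0.21 (limma, adjusted p = 0.506). The libraries of POMP, ADRM1 and SEM1 overlapped between the conditions. Without D391N replicate 1, 6 of the 27 genes were called beside the background of 10.9%, among them NFE2L1 and the ubiquitin-activating enzyme UBA1 lower and NFE2L2 and the deubiquitinases USP14 and UCHL5 higher.

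At the level of transcripts, 1 proteasome entry was called. In control cells PSMA4 rested mainly on PSMA4-219, PSMA4-210 and PSMA4-220 (ENST00000560737), and the last of these fell to near 0 in D391N cells. PSMA4-220 and PSMA4-219 differ in the start of exon 4, and PSMA4-210 joins exon 4 to a later start. The first exon also differs, ending at 78540539 in PSMA4-219 and PSMA4-210 and at 78541771 in PSMA4-220. No reads across single junctions were counted, so use of a junction was not tested. The junctions shown are thus only some of the differences between these transcripts. They are GENCODE transcript sequences of the + strand of chromosome 15 within the coding sequence, and the exon edges are on GRCh38. Lower case marks the end of the upstream exon and capitals the start of the downstream exon. The first pair joins exon 3, ending at 78542219, to exon 4, starting at 78542483 in PSMA4-220 and at 78542576 in PSMA4-219. The second pair joins exon 4, ending at 78542645, to exon 5, starting at 78544190 in PSMA4-220 and at 78544869 in PSMA4-210.
PSMA4-220 exons 3 and 4: tattttctccagaagGTCGCTTATACCAAG
PSMA4-219 exons 3 and 4: tattttctccagaagCAGAGAGACGCAACA
PSMA4-220 exons 4 and 5: ttataaactcaatgaGGACATGGCTTGCAG
PSMA4-210 exons 4 and 5: ttataaactcaatgaGTATTTATTACAGTA

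PSMA4-220 was at 0.347, 0.269 and 0.662 RPKM in D391N and at 45.2, 87.9 and 42.9 RPKM in control cells. In all 3 D391N libraries, replicate 1 included, the posterior was about as wide as that of an entry without assigned reads. The 95% posterior intervals reached up to 4.24, 3.04 and 8.004 RPKM in D391N cells and down to 34.8, 76.4 and 31.3 RPKM in control cells. The transcript fell by 6.79 ± 0.41 on the log2(RPKM + 0.1) scale (SE; limma, adjusted p = 0.009). It was the only 1 of 263 tested proteasome transcripts that was called, beside a background of 0.0604% of 54671 transcripts. Its ratio to the rest of PSMA4 fell by 7.80 ± 0.57 on the log2 scale (SE; limma, adjusted p = 0.022), beside a background of 0.0259% of 46337 ratios. As a share of the gene, PSMA4-220 made up 0.088%, 0.037% and 0.1001% in D391N and 11.6%, 23.1% and 15.8% in control cells (exact permutation test, two-sided, p = 0.10). The call of the transcript was lost without D391N replicate 3 (limma, adjusted p = 0.051), without control replicate 1 (0.077), 2 (0.070) or 3 (0.090), while the log2 fold change stayed between -7.10 and -6.46. The call of the ratio was lost without each single library other than D391N replicate 1 (limma, adjusted p from 0.067 to 0.266), and without a filter on low values (0.069). Of its 50-base windows, 6.01% occurred in no other transcript of the proteasome genes, so its level rests on few distinguishing reads.

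Among the other PSMA4 transcripts, some were higher in all D391N libraries and some in D391N replicates 2 and 3. PSMA4-219 was at 180.3, 175 and 322 RPKM in D391N and 144, 137 and 104 RPKM in control cells. PSMA4-210 was at 160.2, 209.6 and 234 RPKM in D391N and 131, 84.6 and 59.2 RPKM in control cells. Neither transcript overlapped between the conditions. PSMA4-212 was at 1.012, 216 and 59.2 RPKM in D391N cells and at 1.14, 0.251 and 0.244 RPKM in control cells, so that D391N replicates 2 and 3 held it and D391N replicate 1 did not. PSMA4-216 was at 0.67, 94.7 and 6.51 RPKM in D391N cells and below 0.7 RPKM in all control libraries.

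**Figure D4:**
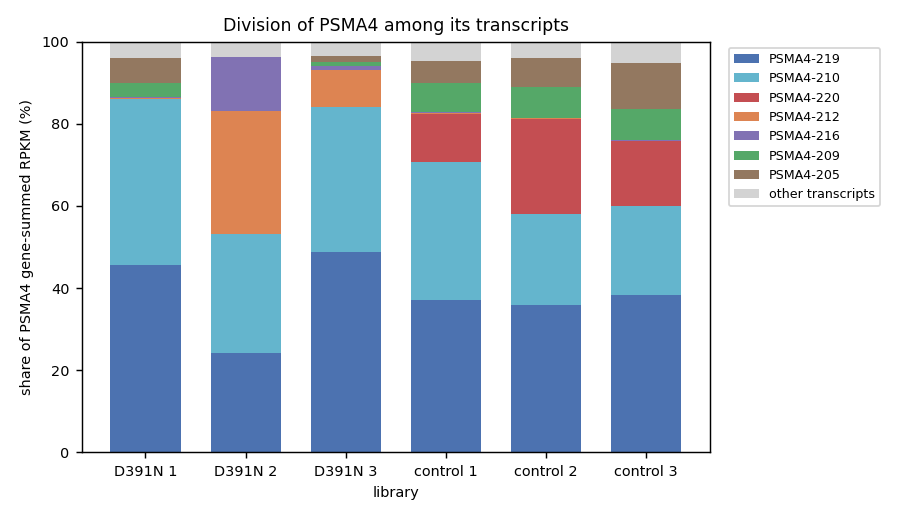
Share of the gene-summed RPKM of PSMA4 (%, vertical axis) held by each of 7 transcripts and by all others, in each of the 6 libraries (bars). PSMA4-220 makes up 11.6% to 23.1% in control libraries and at most 0.1001% in D391N libraries, and PSMA4-212 makes up 29.9% and 8.94% in D391N replicates 2 and 3.

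The PSMA4 transcripts also differed in their first exon. On GRCh38, 9 transcripts, PSMA4-219 and PSMA4-210 among them, shared the end of the first exon at 78540539. Together they held 374, 494 and 588 RPKM in D391N and 307, 256 and 203 RPKM in control cells. PSMA4-206 and PSMA4-212 had first exons that both end at 78540835 and start at 78540814 and 78540735. They held 1.639, 216 and 59.4 RPKM in D391N and 1.30, 0.741 and 0.430 RPKM in control cells. PSMA4-209 and PSMA4-217, with a first exon ending at 78540463, held 15.7, 2.82 and 8.53 RPKM in D391N and 28.2, 30.8 and 21.0 RPKM in control cells, without overlap. PSMA4-220 alone had its first exon from 78541690 to 78541771.

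Promoter windows of PSMA4 are shown for the first exon whose end 9 transcripts share and around that of PSMA4-212. They were chosen because use of these exons differed between the libraries. The second window was placed by a gene start inside the first exon of PSMA4-212 and contains that whole exon (78540735 to 78540835). It is therefore not the window of the start of PSMA4-212 itself. They are RefSeq windows on the + strand, from 250 bases before to 50 after a gene start. The letters searched on both strands were TGANNNNGC (reverse GCNNNNTCA), the core of the antioxidant response element at which NFE2L1 and NFE2L2 bind, and CCAAT (reverse ATTGG), the NF-Y box, and capitals mark the matches, which do not overlap.
PSMA4 chr15:78540155-78540454: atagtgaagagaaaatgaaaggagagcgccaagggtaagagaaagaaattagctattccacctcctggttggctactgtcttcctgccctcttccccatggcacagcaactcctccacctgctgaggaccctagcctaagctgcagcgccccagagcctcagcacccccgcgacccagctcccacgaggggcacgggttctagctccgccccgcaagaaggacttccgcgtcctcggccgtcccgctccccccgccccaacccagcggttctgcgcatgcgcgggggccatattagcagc
PSMA4 chr15:78540536-78540835: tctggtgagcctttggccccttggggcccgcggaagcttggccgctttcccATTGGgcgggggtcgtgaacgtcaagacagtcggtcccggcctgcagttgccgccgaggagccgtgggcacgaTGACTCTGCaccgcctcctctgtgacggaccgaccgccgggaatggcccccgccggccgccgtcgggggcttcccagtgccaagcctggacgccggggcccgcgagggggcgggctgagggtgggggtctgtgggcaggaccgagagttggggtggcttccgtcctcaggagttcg

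The first window held neither motif, and the second window held 1 of each. A window was found for 42 of the 48 genes, and in the first window of each gene TGANNNNGC occurred in 26 (61.9%), beside 42.1% of 27305 genes. CCAAT occurred in 19 (45.2%), beside 35.7%. These backgrounds cover all genes with a window rather than protein-coding genes alone, and enrichment was not tested. A match is a string of letters and was not tested for binding.

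Other proteasome genes shifted between transcripts in some D391N libraries without passing the test. The counts per transcript lay near the background over all genes. Those per gene lay above it, with more tested transcripts per gene in the proteasome genes. Of the 263 tested transcripts, 32 were higher and 39 lower in every D391N library, beside a background of 10.1% and 15.6%. Of the same transcripts, 22 had a ratio to the rest of their gene that was higher and 39 a ratio that was lower in every D391N library, beside a background of 10.3% and 13%. By shares of the gene, 24 transcripts were higher and 40 lower without overlap, beside a background of 10.1% and 12.8% of 48131 transcripts. Of the 42 proteasome genes with at least 2 tested transcripts, 30 (71.4%) had such a transcript, beside a background of 59.1% of 8711 protein-coding genes. In 17 (40.5%) its mean share differed by more than 10 percentage points, beside 33.5%. The median number of tested transcripts per gene was 5 in the proteasome genes and 4 in the protein-coding genes. Without D391N replicate 1, 46 transcripts (background 9.07%) and 39 ratios (background 8.2%) of the proteasome genes were called.

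PSMA3-208, a retained-intron entry, had the largest difference of mean share among the transcripts without overlap. It was at 0.840, 127 and 83.3 RPKM in D391N and 0.327, 0.261 and 0.275 RPKM in control cells, that is 0.400%, 50.6% and 34.0% against at most 0.245% of PSMA3. The coding PSMA3-201 held 22.3%, 3.30% and 10.4% of the gene in D391N and 35.4%, 35.7% and 35.3% in control cells. The ratio of PSMA3-208 passed the test only without D391N replicate 1 (limma, adjusted p = 0.235 with all libraries and 0.008 without it). The entry was picked for its share difference in these data, and D391N replicate 1 was the D391N library that held little of it. The lower p without that library is therefore no support. None of the 50-base windows of PSMA3-208 was its own. PSME3-207, a short coding entry, had the same pattern over the libraries, with 0.700%, 44.5% and 28.2% of PSME3 in D391N and at most 0.691% in control cells (limma, adjusted p = 0.253 for the ratio with all libraries and 0.008 without D391N replicate 1). PSME3-207 was also picked for its share difference in these data, so its lower p is no support either.

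In PSMA7 the library that differed was D391N replicate 1. The coding PSMA7-203 held 21.2%, 72.8% and 71.7% of the gene in D391N and 75.6%, 87.7% and 76.4% in control cells (limma, adjusted p = 0.371 for the ratio). PSMA7-205, without a defined coding sequence, held 41.6%, 7.87% and 5.35% in D391N and 3.68%, 2.14% and 1.62% in control cells. PSMA5-202, an entry of 275 bases, was higher in all D391N libraries, with 50.6, 213 and 79.1 RPKM against 24.6, 24.0 and 20.6 RPKM, or 39.5%, 60.1% and 29.3% against 19.8%, 15.5% and 20.7% of the gene (limma, adjusted p = 0.208 for the ratio).

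PSMA1-201 and PSMD10-205 were lower in all 3 D391N libraries. PSMA1-201 held 6.71%, 4.96% and 6.82% of PSMA1 in D391N and 26.4%, 24.0% and 27.1% in control cells (limma, adjusted p = 0.081 for the ratio and 0.018 without D391N replicate 1). PSMD10-205 held 21.0%, 17.8% and 4.68% of PSMD10 in D391N and 36.3%, 38.7% and 36.5% in control cells (limma, adjusted p = 0.215 for the ratio). Neither had a 50-base window of its own.

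**Figure D5:**
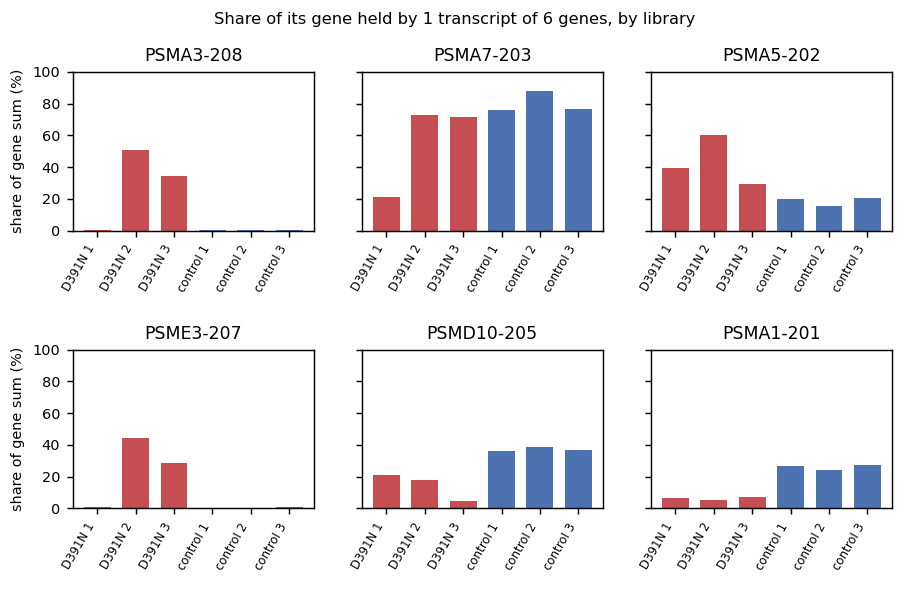
Share of the gene-summed RPKM (%, vertical axis) held by 1 named transcript of each of 6 genes in the D391N libraries (red) and the control libraries (blue). PSMA3-208 and PSME3-207 are high in D391N replicates 2 and 3 only, PSMA7-203 is low in D391N replicate 1, and PSMA1-201 is low in all 3 D391N libraries.

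By annotated kind, protein-coding transcripts held 60.1%, 57.0% and 61.5% of the summed RPKM of the proteasome genes in D391N and 63.2%, 62.6% and 61.3% in control cells. Retained-intron entries held 14.2%, 21.5% and 14.6% in D391N and 13.01%, 13.5% and 13.3% in control cells, with D391N replicate 2 highest. Entries annotated for nonsense-mediated decay held 18.6%, 11.8% and 15.5% in D391N and 18.0%, 17.3% and 18.0% in control cells, which overlapped. In other protein-coding genes decay entries held 7.53% to 8.74%. PSMA3-211, the largest decay entry of PSMA3, alone was at 147, 99.0 and 123 RPKM in D391N and 101, 99.4 and 61.4 RPKM in control cells.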

How the data were processed

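The authors used cutadapt for trimming, Segemehl for alignment to the Ensembl transcriptome of hg38 (GRCh38) and BitSeq for quantification. Deposited for each transcript and library were the natural log of RPKM, as a posterior mean, and the variance of that posterior. Exponentiation of the natural log values gave RPKM, which were summed per gene. A read that fits several transcripts is split by BitSeq, so isoform levels depend on each other. Of the gene identifiers 88.2% had a symbol, and 90.2% of the transcripts had a length. The variance gave an estimate of the reads behind a value, and the values of transcripts with no reads gave the depth, and these estimates and intervals cover counting and assignment error only. Genes, transcripts and ratios of a transcript to the rest of its gene with a mean of at least 1 RPKM were fitted on the log2(RPKM + 0.1) scale, which understates changes of low entries, by limma 3.58.1 (trended empirical Bayes) in R 4.3.3 over the whole table, with Benjamini-Hochberg adjustment. The procedure was tested on simulated data. Tables and plots used Python 3.11.15, pandas 2.3.3, numpy 2.4.6, scipy 1.17.1 and matplotlib 3.10.9. The BitSeq comparison of the conditions by the authors was not run here. Some genes of the marker and pathway lists are not reported here.

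The members, gene lists and tests were chosen with earlier results of these data known. Named in each role were the gene with the highest level and the genes with the highest and lowest fold change, catalytic and inducible counterparts, members below the filter, members among the crosslinked RNAs of the study (PSMA7, PSMG1 and PSMG3), and for isoforms PSMA4 and the 6 other genes with the largest difference of a non-overlapping share. PSMA6, PSMC5, PSMD1, PSMD11, PSMD12, PSMD13, PSME2, PSME4, PSMF1, the pathway genes other than NFE2L1, POMP, ADRM1 and SEM1, and the other PSMA4, PSMA3, PSMA7 and PSME1 transcripts were named after their values were seen. Alternatives were other pseudocounts, filters, scalings, a fit without trend, a replicate block, protein-coding transcripts only, each library left out and, added later, length-weighted sums. Junction sequences are from GENCODE v44 and promoter windows and gene positions from RefSeq GRCh38.p14.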

Additional observations from a re-analysis of the deposited data

How the results depend on the processing

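With 3 libraries in a group, shared reads among isoforms and a D391N library close to the controls in isoform use, counts of calls depended on the setting, and the cause was not tested except that a left-out library leaves fewer samples. Against 29 genes called over all genes, there were 16 with a pseudocount of 0.01 RPKM, 61 with 1 RPKM, 6 with a filter of 5 RPKM, 18 without a filter, 14 with median centring, 17 with quantile normalization, 593 with protein-coding transcripts, 551 with length-weighted sums and 2 to 2261 when 1 library was left out. Against 33 transcripts called, there were 142 with a pseudocount of 1 RPKM, 17 with a filter of 5 RPKM, 18 without a filter, 52 without trend and 2 to 4961 when 1 library was left out. Against 12 ratios called, there were 7 and 54 with pseudocounts of 0.01 and 1 RPKM, 40 and 20 with filters of 0.1 and 5 RPKM, 0 without a filter, 19 without trend and 0 to 3800 when 1 library was left out. In each of these, the highest count was that without D391N replicate 1. Correlations of same-numbered libraries were 0.07, 0.22 and -0.11, so the numbers were not taken as pairs, and a replicate block gave 2 genes, 7 transcripts and 0 ratios.

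Calls among the proteasome genes went from 0 to 1 with protein-coding transcripts, 1 with length-weighted sums and 0 to 5 when 1 library was left out, and stayed at 0 under the other settings. Calls among the pathway genes went from 0 to 3 with protein-coding transcripts (among them UBA1 and VCP) and 0 to 6 when 1 library was left out. Proteasome transcripts called went from 1 to 0 with the replicate block (PSMA4-220; limma, adjusted p = 0.107, and 0.105 for its ratio) and ranged from 0 to 46 when 1 library was left out. Proteasome ratios called were 2 with a pseudocount of 1 RPKM, 0 without a filter, 0 with the replicate block and 0 to 39 when 1 library was left out. Transcripts with non-overlapping shares, 64 in all, numbered 82 to 145 when 1 library was left out, the highest without D391N replicate 1. Leaving out a library can only keep or raise this count, so the rise itself carries no information. The median log2 fold change of the proteasome genes was 0.18 with median centring, -0.20 with protein-coding transcripts and -0.18 to 0.053 when 1 library was left out, the lowest without control replicate 3. Protein-coding transcripts turned the log2 fold change of 8 of 42 tested proteasome genes, PSMA1 to -0.16, PSMA3 to -1.20, PSMA6 to 0.068, PSMC6 to -0.54, PSMD8 to 0.073, PSMC5 to -0.18, PSMD11 to -0.22 and PSMD13 to -0.18, and length-weighted sums that of 3 of 43, among them PSME3 to -0.084. Median centring turned 4 of 43, among them PSMA7 to 0.22, PSMB7 to 0.18 and PSMD8 to 0.086, and the pathway gene SEM1 to 0.013, and quantile normalization turned PSMA7 to 0.040 and PSMD8 to 0.098. With 1 library left out, PSMA7 ranged from -0.15 to 0.10, PSMB7 from -0.18 to 0.053, PSMD8 from -0.30 to 0.029 and PSMG1 from -0.037 to 0.17.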
